A study of Gallus gallus with 4 samples.

Results

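The genes described here had a locus lying mostly within H3K9me3 domains of chicken embryonic stem cells (ESCs) and outside those of cultured chicken primordial germ cells (cPGCs). They were selected on their measured coverage: at least 75% of the locus in ESC domains and at most 10% in cPGC domains, without *PIWIL1* and *MYOM3*. The rule was met by 40 of 1999 analysed loci (2.0%), and 38 genes were retained. Coverage and the contrast between the cell types are therefore given as a description of how the genes were chosen, with no test. Locus starts and ends were used as the study's annotation lists them, on the galGal5 assembly, with nothing added. The paper describes its loci as running from 500 bp before the transcription start to the transcription end.

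The study profiled H3K9me3 by ChIP-seq in cPGCs, a culture of the precursors of eggs and sperm, and in ESCs, a culture of pluripotent cells; the labels name no treatment of either. Each cell type was represented by 1 immunoprecipitated and 1 input library (4 libraries in all), so that no value has a replicate error, and differences between cultures, libraries and cell types cannot be told apart. The deposited values were the positions of 24491 ESC domains and 23130 cPGC domains. The positions carry no count or signal, so the depth behind the lists is unknown, and a locus outside the domains may still hold some H3K9me3. Cell type markers were not checked, since domain positions carry no expression level.

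H3K9me3, the trimethylation of lysine 9 on histone H3, is written by enzymes such as SETDB1 and the SUV39H proteins and is bound by HP1 proteins. It marks constitutive heterochromatin and transposable elements, and it also covers genes that are kept silent in a given cell type. Germ line genes are a known class of such targets in mammalian somatic and embryonic stem cells.

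Each of the 38 loci lay under exactly 1 ESC domain, and the genes were distributed over 35 distinct domains on 16 of the 28 chromosomes with analysed loci. The analysed loci were only part of the study's annotation and were spread unevenly over the chromosomes. Chromosomes 1, 2 and 3 held 21, 1 and 6 of them, against 117 on chromosome 23 and 150 on chromosome 26. Values given for all loci therefore describe this part of the genes and not the whole genome. In ESCs, 23 of the 38 loci were covered in full and 15 were covered from 79.7% (*PANX2*) to 99.1% (*ST6GALNAC1*). In cPGCs, 36 of the 38 loci had no base in a domain, against 71.1% of all analysed loci. The exceptions were *GnRH-I*, at 2.08%, and ENSGALG00000002581, at 1.44%. The rule's limit on cPGC coverage favours loci without a cPGC base, so this difference comes at least in part from the choice of genes. Just below the ESC threshold were *NEFL* (74.97%), *UAP1* (73.20%), *GHDC* (72.76%), ENSGALG00000001049, described as caspase 1 (72.46%), *GTSF1* (71.91%), ENSGALG00000000720, described as a guanylate binding protein (71.89%), *SLC46A1* (71.52%), *GTF2IRD1* (71.32%), ENSGALG00000001289, described as SHC2 (71.21%), *VAT1* (71.08%) and *TMEM170A* (70.13%). Just above the cPGC threshold was *GALK1*, at 14.12% in cPGCs and 100% in ESCs.

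**Figure D1:**
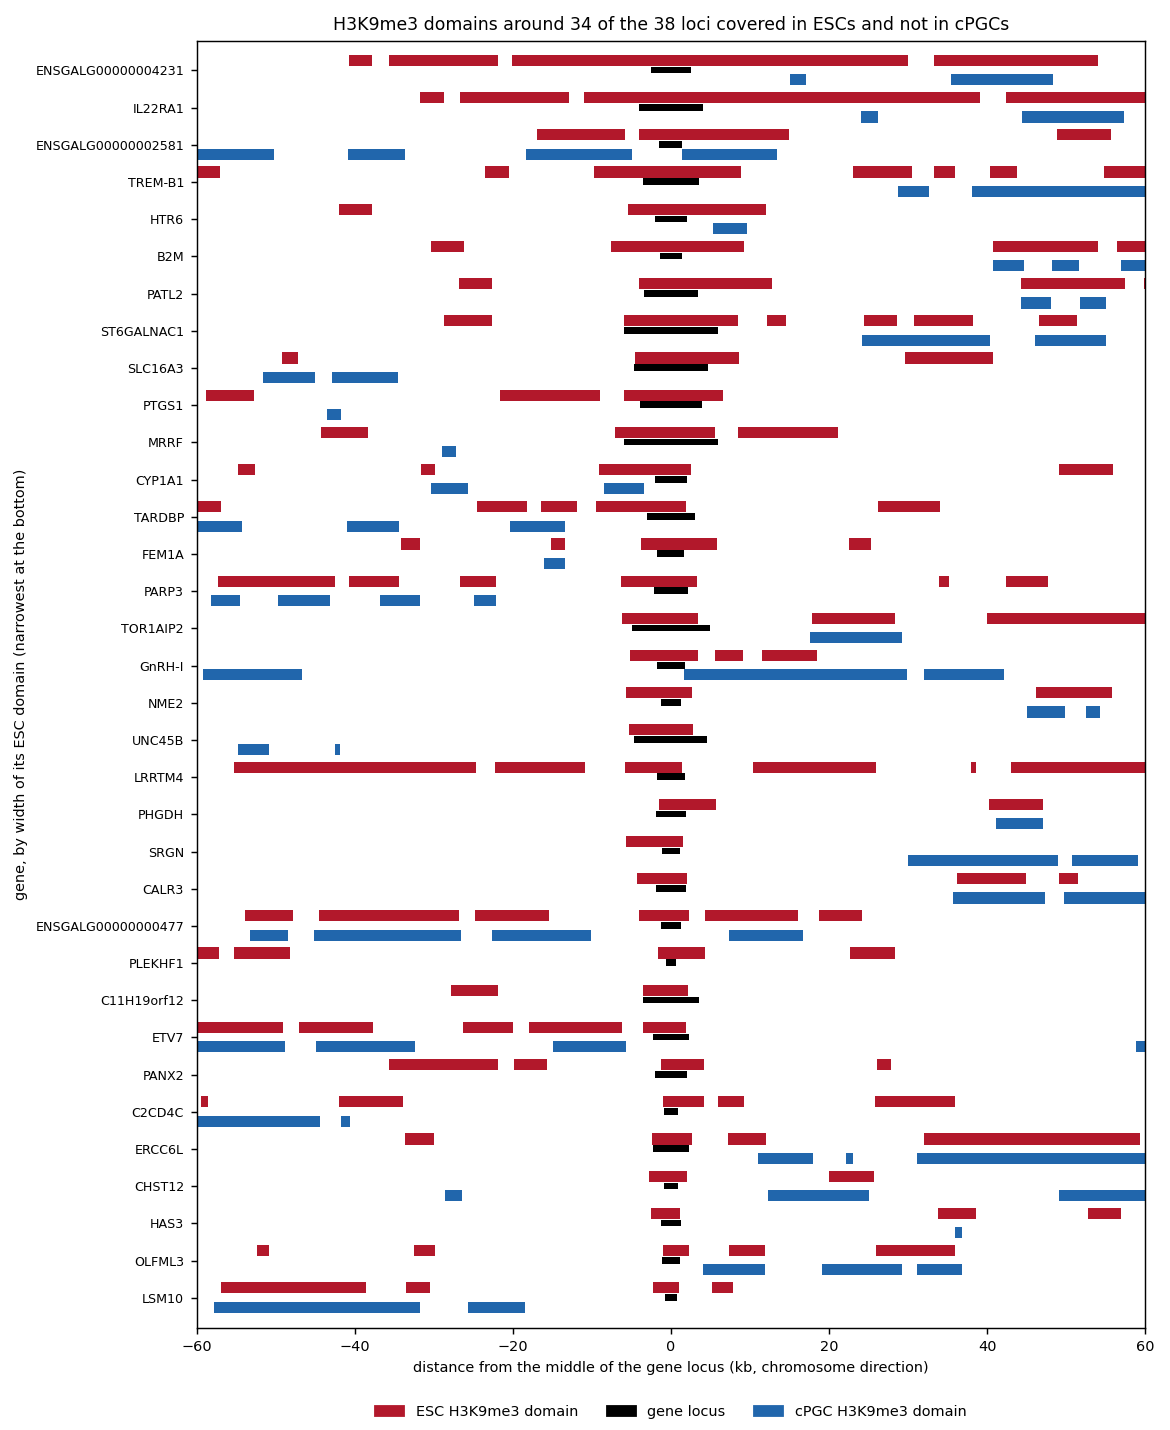
Positions of ESC domains (red), cPGC domains (blue) and the gene locus (black) within 60 kb of the middle of 34 of the 38 loci, 1 row per gene, with distance in kb along the chromosome on the horizontal axis. Rows are ordered by the width of the ESC domain over the locus, from 3300 bp at the bottom to 50100 bp at the top. The nearest cPGC domain was at a median of 23206 bp for the 36 genes without a cPGC base, against 25.2 kb for all 1421 such loci.

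Most of these genes were short and lay under domains of moderate width. The median locus length was 4122 bp (range 1322 to 12140), against 11615 bp for all analysed loci; short loci are more easily covered in full. The 35 ESC domains had a median width of 8700 bp (range 3300 to 50100), and 4 were narrower than 5 kb, 17 between 5 and 10 kb, 11 between 10 and 20 kb and 3 wider than 20 kb. All ESC domains together had a median width of 6300 bp, but a narrow domain cannot cover a whole gene. The domain was at the median 2.33 times as long as the locus, from 0.806 times at *C11H19orf12* to 10 times at ENSGALG00000004231. The locus filled at least 50% of its domain in 14 genes and less than 25% in 7.

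The locus lay whole inside the ESC domain in 23 of the 38 genes (60.5%), against 3.85% of all loci, and these were the same 23 that had both ends in a domain (5.65% of all loci), a difference that the 75% threshold builds in. The uncovered part was at the lower-coordinate end in 5 of the remaining genes and at the higher-coordinate end in 10. It reached at most 2109 bp. Domain boundaries seldom followed gene boundaries: 17 of the 76 locus ends (22.4%) were within 600 bp of the end of the domain, against 17.6% of the ends of all 162 loci covered at 75% or more in ESCs (8.10% of the analysed loci). Both ends did so at *ERCC6L* alone.

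**Figure D2:**
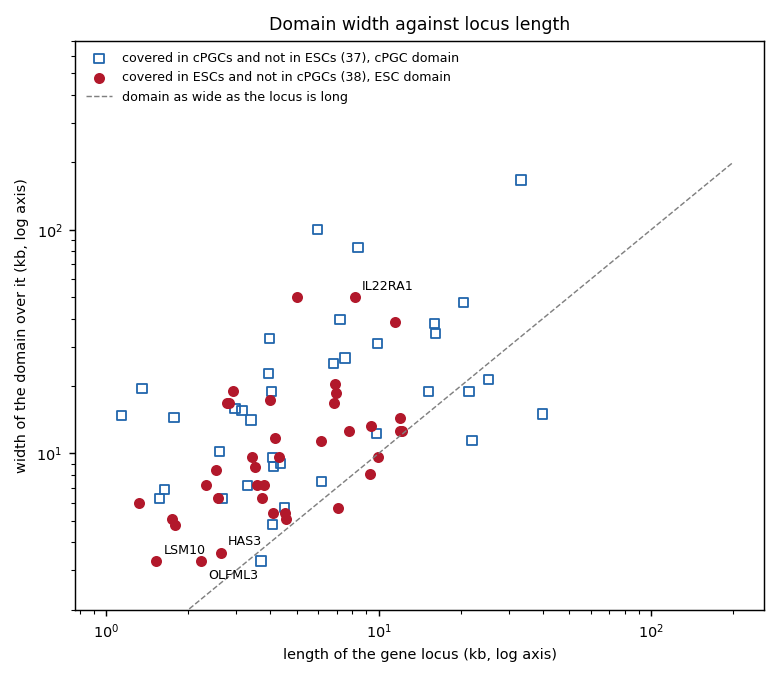
Width of the domain over each locus (kb, log axis) against the length of the locus (kb, log axis), for the 38 genes covered in ESCs and not in cPGCs (red, ESC domain) and the 37 genes with the opposite coverage (blue squares, cPGC domain). The median width was 8700 bp for the former and 15600 bp for the latter; the dashed line marks a domain as wide as the locus is long.

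Genes of translation and RNA handling were among those covered in ESCs. *PATL2* (chromosome 10, 1248940 to 1255764), which in mammals holds messenger RNA of the oocyte untranslated, was covered at 100% in ESCs and 0% in cPGCs. It shared its domain of 16800 bp (1248301 to 1265100) with *B2M* (1254440 to 1257208), the light chain of MHC class I, which was likewise covered at 100% and 0%. Their loci overlap by position, so the coverage of one contains part of the coverage of the other. The domain ended 7892 bp past *B2M*. It reached into *CPEB1*, a regulator of polyadenylation known from oocytes, over 1.97% of that locus. No cPGC domain was found for 242 kb around the pair, and the nearest was 39392 bp from *B2M*. On the other side *SNX1*, a sorting nexin 1066 bp from *PATL2*, had no domain in either cell type.

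*MRRF*, the mitochondrial ribosome recycling factor (chromosome 17, 9230874 to 9242855), was covered at 96.2% in ESCs and 0% in cPGCs. The other 9 mitochondrial translation loci in the list, all ribosomal protein genes, had no domain base in either cell type. The same held for 1101 of all 1999 analysed loci, and the list was kept because it holds *MRRF*. The RefSeq gene order of a later assembly gives the *MRRF* locus the symbol *MRRFP1*. Whether the locus encodes a working protein was not examined. *LSM10*, a component of the U7 particle that processes histone messenger RNA (chromosome 23, 4049744 to 4051268), lay whole inside an ESC domain of 3300 bp, which together with that of *OLFML3* was the narrowest of the set. The other 5 listed Sm and LSm loci were free of domains in both cell types, like most analysed loci. That list too was kept because it holds a gene of the set. The *LSM10* domain also took in 19.8% of the overlapping locus of *OSCP1*. *TARDBP*, which encodes the RNA-binding protein TDP-43, was covered at 80.9% in ESCs, with 1167 bp left out at the higher-coordinate end. The next gene on that side, *MASP2*, had no domain.

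Germ cell genes were represented by *PATL2* and *CALR3*, 2 of 7 loci listed by symbol, with *PIWIL1* left out. Over all loci 38 of 1999 were in the set, but the list was kept because it holds some of them. It is not complete and leaves out *CPEB1*, *CTCFL* and *HSF5*, which did not meet the rule. *CALR3*, a calreticulin that in mammals is confined largely to the testis (chromosome 28, 4351495 to 4355222), lay whole inside a 6300 bp domain that was the only ESC domain in 121 kb without any cPGC domain. *GTSF1*, a factor of the piRNA pathway, missed the rule by its coverage in ESCs (71.91%), with 0.885% of its locus in cPGC domains. The other listed loci went different ways. *SYCP1*, of the synaptonemal complex, was covered at 23.0% in ESCs and 79.6% in cPGCs, and *ZP2* at 44.9% and 48.6%. *ZP3* and *HENMT1* had no domain in either. *FEM1A*, a substrate receptor of a ubiquitin ligase, lay whole inside a domain of 9600 bp near the end of chromosome 28 (4883400 to 4886816), where no cPGC domain was found beyond it.

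**Figure D3:**
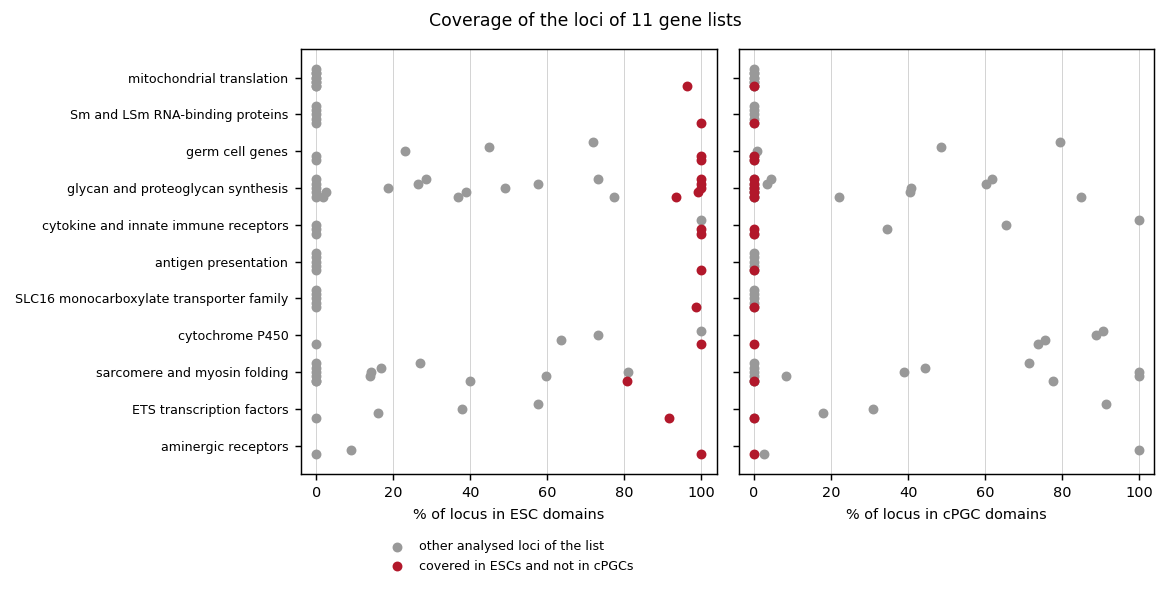
Percent of each locus in ESC domains (left) and in cPGC domains (right) for the analysed loci of 11 gene lists, 1 point per locus; red points are genes covered in ESCs and not in cPGCs and grey points the other loci of the list. Mitochondrial translation, Sm and LSm and SLC16 loci sit near 0 apart from 1 red point each, whereas glycan and sarcomere loci spread over the whole range. Each list was kept because it holds a red point, and 1101 of all 1999 loci had no domain in either cell type.

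A list of 21 glycan synthesis loci, kept because it holds some of the genes, gave 5 of them, against 38 of 1999 over all loci. Of the 21, 16 had some base in ESC domains and 8 in cPGC domains, against 755 and 578 of 1999. The list is not complete and leaves out *CSGALNACT2* and *GBGT1*, which did not meet the rule. It holds the proteoglycan core protein gene *SRGN* but not *OPTC* or *CSPG4*, which also encode such core proteins. *OPTC* was covered at 0% in ESCs and 100% in cPGCs, and *CSPG4* at 66.4% and 100%. *CHST12*, a chondroitin 4-sulfotransferase (chromosome 14, 3144682 to 3146474), had an ESC domain of 4800 bp around a locus of 1793 bp. *SRGN*, the serglycin core protein of secretory granules (chromosome 6, 10819203 to 10821527), had 7200 bp. Its domain was surrounded by 0% ESC coverage over the 50 kb beyond each of its edges.

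*HAS3*, a hyaluronan synthase (chromosome 11, 19153150 to 19155777), was covered at 93.3% by 3600 bp. *ST6GALNAC1*, a sialyltransferase acting on O-glycans (chromosome 18, 4333390 to 4345366), was covered at 99.1% by 14400 bp. Its paralogue *ST6GALNAC2*, 3044 bp further on, was covered at 36.7% in ESCs and 0% in cPGCs. *UAP1*, which makes UDP-N-acetylglucosamine, was among the loci just under the threshold. No listed glycan locus had the opposite coverage, but *OPTC*, outside the list, did. The only listed locus at 75% or more in cPGCs, *MGAT5B* with 85.0%, was covered at 49.1% in ESCs.

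Immune genes included the pair under the widest domain of the set. *IL22RA1*, a subunit of the interleukin 22 receptor (chromosome 23, 5676656 to 5684818), and ENSGALG00000004231, described as the interferon lambda receptor (5687284 to 5692273), lay 2465 bp apart inside an ESC domain of 50100 bp (5669701 to 5719800). Both belong to the class II cytokine receptors. Only 4.19% of that domain was in cPGC domains, in a block of 2100 bp that lay 12527 bp beyond the second gene. The domain ended just inside the lower-coordinate end of the next analysed locus, *GRHL3*, an epithelial transcription factor.

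*TREM-B1*, a receptor of the myeloid TREM family (chromosome 26, 4741376 to 4748362), lay whole inside 18600 bp, which extended into *NFYA* beside it, 26.8% of which lay in ESC domains. *IL22RA1* and *TREM-B1* were 2 of 6 cytokine and innate receptor loci listed by symbol, a list kept because it holds them. Over all loci 38 of 1999 were in the set. The receptor list holds neither ENSGALG00000004231 nor *SIGIRR*, and the latter was covered at 100% in both cell types. Of the other listed loci, *TNFRSF18* and *CSF3R* were at 0% in ESCs, with 100% and 65.4% in cPGCs. *B2M* was 1 of 6 antigen presentation loci listed by symbol, a list likewise kept because it holds a gene of the set. The other 5, which included the class II gene *BLB1* and proteasome subunits, had no domain in either cell type, like 1101 of all 1999 loci. The list is not complete. Outside it, *CTSS* (75.5% in ESCs and 34.4% in cPGCs) and *NLRC5* (31.4% and 27.9%) had domains, and *MHCDMA* had none. *PTGS1*, a cyclooxygenase of prostaglandin synthesis (chromosome 17, 9247484 to 9255289), was covered in full by 12600 bp. It stood 4628 bp from *MRRF*, under a separate domain of the same width, in a stretch of 693 kb without a cPGC domain, the longest of the set. *ETV7*, an ETS transcription factor, was covered at 91.5%, with a cPGC domain 3363 bp away. Of the 5 ETS loci listed, which do not include *SPDEF*, *ELF3* was covered at 57.5% in ESCs and 91.4% in cPGCs.

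Among genes of metabolism and transport, *CYP1A1*, which oxidises aromatic hydrocarbons (chromosome 10, 2375242 to 2379385), differed from a close neighbour. Its ESC domain of 11700 bp (2368201 to 2379900) also covered its paralogue *CYP1A2* in full, 974 bp away. In cPGCs a domain of 5100 bp covered 88.9% of *CYP1A2* and ended 1341 bp short of *CYP1A1*, so that 43.6% of the ESC domain was also in a cPGC domain. The other cytochrome P450 loci analysed had at least 73.7% of their locus in cPGC domains.

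*SLC16A3*, the lactate exporter MCT4 (chromosome 18, 4923167 to 4932503), was covered at 98.6% by 13200 bp. The other 5 SLC16 loci had no domain in either cell type, like 1101 of all 1999 loci. The SLC16 list was kept because it holds *SLC16A3*. *NME2*, a nucleoside diphosphate kinase (chromosome 18, 5119726 to 5122254), lay whole inside 8400 bp in the same cPGC-free stretch of 273 kb. *PHGDH*, the first enzyme of serine synthesis, was covered at 89.5%. Its neighbour *REG4*, at 4990 bp, had no domain in either cell type, and the cPGC-free stretch around it measured 405 kb.

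Genes of the nervous system and of hormone signalling were covered in ESCs in a variety of surroundings. *LRRTM4*, a synaptic adhesion protein (chromosome 22, 4048931 to 4052493), was covered at 89.0% by a domain of 7200 bp. The 312 kb around it held 18 ESC domains, which took up 51.0% of the bases, and no cPGC domain; over all 1464 stretches of at least 100 kb without a cPGC domain, ESC domains took up 10.4%. *PANX2*, a channel of the pannexin family, was covered at 79.7% by 5400 bp, with the nearest cPGC domain at 70866 bp. *C2CD4C* (chromosome 28, 2655668 to 2657409) lay whole inside 5100 bp, in an overlap with the SHC2 locus named above.

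*HTR6*, a serotonin receptor (chromosome 21, 4776127 to 4780129), lay whole inside 17400 bp, of which 24.1% was in a cPGC domain of 4200 bp that began 3371 bp from the gene, over *TMCO4*. *HTR4*, another serotonin receptor, had the opposite coverage, at 0% in ESCs and 100% in cPGCs. *GnRH-I*, the hypothalamic hormone that drives gonadotropin release (chromosome 22, 835370 to 838873), was covered in full by 8700 bp in ESCs. A cPGC domain of 28200 bp overlapped its last 73 bp and went on over *DOCK5*, 45.6% of which lay in cPGC domains.

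Genes of muscle and matrix were covered in part. *UNC45B*, a chaperone of muscle myosin, was covered at 80.8% by a domain of 8100 bp without any other ESC base in the 50 kb beyond its edges, and its neighbour *RFFL* had none. Of the 14 listed sarcomere and myosin folding loci *UNC45B* was the only one that met the rule (*MYOM3* was left out), against 38 of 1999 over all loci. *MYL2* and *MYL10* were at 0% in ESCs, with 100% and 77.6% in cPGCs. *OLFML3*, a secreted matrix protein (chromosome 26, 3801199 to 3803416), was covered at 95.4% by 3300 bp, and the next cPGC domain began 2984 bp away.

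Genes of mitosis and the nucleus included *ERCC6L*, which encodes the PICH helicase of anaphase DNA threads (chromosome 4, 1682833 to 1687408). Its domain of 5100 bp passed the locus by only 132 and 392 bp, and the nearest cPGC domain was 8792 bp away. *TOR1AIP2*, a cofactor of torsin in the endoplasmic reticulum, was covered at 84.5%. *PARP3*, an ADP-ribosyltransferase of the DNA break response (chromosome 12, 3137908 to 3142205), lay whole inside 9600 bp.

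The remaining genes fell in no common group. *PLEKHF1*, an endosomal protein and the shortest locus (chromosome 11, 8496073 to 8497394), lay whole inside 6000 bp. *C11H19orf12* followed it in the same cPGC-free stretch of 237 kb, was covered at 80.2%, and was the farthest from a cPGC domain, at 102033 bp. ENSGALG00000002581, described as HIV-1 Tat interactive protein 2 (chromosome 8, 3703920 to 3706842), was covered in full by 18900 bp, but 63.5% of that domain was in a cPGC domain of 12000 bp that overlapped the last 42 bp of the locus. Its neighbour ENSGALG00000002643, 4924 bp away under the same ESC domain, was covered at 100% in both cell types. ENSGALG00000000477, without a description (chromosome 26, 1507860 to 1510438), lay whole inside 6300 bp in the shortest cPGC-free stretch, 17.4 kb. The locus after it, ENSGALG00000000483, was covered at 100% in ESCs and 62.1% in cPGCs.

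Of the 35 ESC domains, 30 had no overlap with a cPGC domain, against 34.6% of all ESC domains; the limit of 10% on the locus favours such domains. The 5 that overlapped one lay over ENSGALG00000002581, *CYP1A1*, *HTR6*, *GnRH-I* and the *IL22RA1* pair. The nearest cPGC domain was at a median distance of 20.6 kb from the locus, and 5 loci were at least 50 kb away. For the 36 genes without a cPGC base the median was 23206 bp, against 25.2 kb for all 1421 loci without one. With domains of at least 5000 bp alone, the median distance of the genes then chosen was 32927 bp. For 35 genes the stretch between the cPGC domains on either side could be measured; its median was 193 kb and 17 exceeded 200 kb, against a median of 153 kb for all such loci. These values count a stretch again for each locus in it, and the 35 genes lay in only 29 distinct stretches.

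**Figure D4:**
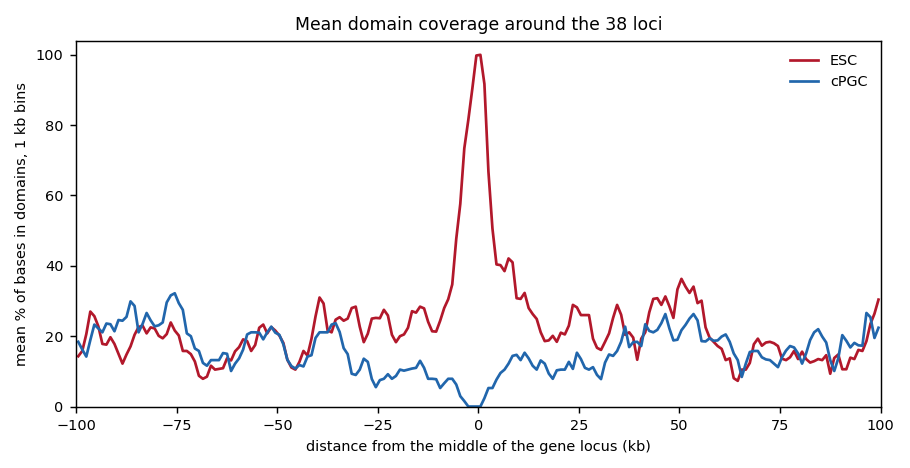
Mean percent of bases in ESC (red) and cPGC (blue) domains in bins of 1 kb, by distance in kb from the middle of the 38 loci. The ESC curve peaks at the loci, as the choice of genes requires, and between 50 and 100 kb the means were 17.6% in ESCs and 19.2% in cPGCs.

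Outward from the middle of the loci the contrast faded with distance. The rings within 10 kb lie partly inside the longer loci (up to 12140 bp) and their ESC domains. Their contrast therefore comes in part from the choice of genes. At 2 to 5 kb from the middle of the locus the mean coverage was 61.7% in ESCs and 3.78% in cPGCs, at 5 to 10 kb 35.8% and 9.53%, at 10 to 20 kb 23.9% and 10.9%, at 20 to 50 kb 22.8% and 15.1%, and at 50 to 100 kb 17.6% and 19.2%. The rule did not use the 50 kb beyond each edge of the locus and its ESC domain, but these bases adjoin what it chose. Over them the median coverage was 19.6% in ESCs (range 0 to 66.9) and 12.3% in cPGCs (0 to 45.3). The same measure over all loci was 12.7% and 11.7%, and over all 162 loci covered at 75% or more in ESCs 24.8% and 28.5%. ESC bases exceeded cPGC bases there in 25 of the 38 genes, against 46.4% of all loci. Genes under the same ESC domain share these flanks and were counted separately. *LRRTM4* had the most ESC coverage in these flanks, and like *PANX2*, *PLEKHF1*, *C11H19orf12* and *HTR6* it had no cPGC base there. *GnRH-I*, with 10.5% of its flanks in ESC domains and 45.2% in cPGC domains, stood in cPGC-rich surroundings. ENSGALG00000000477, with 50.1% and 45.3%, stood in surroundings rich in domains of both cell types.

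Within 10 kb of the 38 genes, or under the same ESC domain, a choice that favours covered loci, were 40 other analysed loci, of which 19 (47.5%) had no base in ESC domains, against 62.2% of all loci, and 32 (80%) none in cPGC domains, against 71.1%. At least 75% was covered in ESCs in 7 of them (17.5%), among them *CYP1A2* and *GRHL3*, against 8.10% of all loci. The 7 include *MYOM3*, which met the rule and was left out by name.

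The opposite choice, at least 75% in cPGCs and at most 10% in ESCs, gave 37 genes (1.85% of all loci). Their cPGC domains had a median width of 15600 bp (range 3300 to 166800), and 13 exceeded 20 kb, against 3 over the genes covered in ESCs. Their median distance to the other cell type's domains was 8433 bp (interval over genes 3976 to 13652), against 20590 bp (11699 to 34623), and these intervals overlapped. At least 50 kb separated 8 of the 37 from such a domain, against 5 of the 38 genes covered in ESCs. Over the 50 kb beyond locus and domain the median coverage was 33.9% in cPGCs and 15.5% in ESCs. All cPGC domains had a median width of 9000 bp, so that the cell types also differed in width over the whole genome. The 95 genes covered at 75% or more in both cell types lay under ESC domains of 14100 bp at the median.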

How the data were processed

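ChIP-seq of H3K9me3 was analysed from cPGCs and ESCs. The authors aligned paired reads to galGal5 with Bowtie 2, kept confidently mapped proper pairs, called domains with SICER (300 bp windows) and MACS2 against input, and deposited the positions of the domains on the main autosome scaffolds, which were used here. Regions where reads cannot be placed uniquely yield no domain, and near-identical gene copies are therefore uncertain. The deposited starts, counted from 0, were converted to 1-based positions. No depth, count or score accompanies these positions, so neither counting intervals nor detection floors are given.

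Positions, names and descriptions of 1999 loci, the part of the study's annotation table used here, served as annotation; covered percent was recomputed. Strand was not used. A single base in common counted as overlap. Gene order was taken from RefSeq on GRCg7b, where 35 of the 38 genes were matched. No sequence is shown. Computations used Python 3.11.15, numpy 2.4.6, pandas 2.3.3, scipy 1.17.1 and matplotlib 3.10.9, and the interval routines were tested on simulated domains (3050 of 3050 checks passed).

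The genes, the 11 lists and the thresholds were chosen with earlier results of these data known. Each list was written from gene symbols because at least 1 of the genes belongs to it. A list need not hold every analysed locus of its class, so its counts hold for the listed loci alone. The rule names all 38 genes, with neighbours within 10 kb or under the same ESC domain, but some genes it takes are not reported here; the grouping by function was made after the values were seen. With 1 library of each kind no test was made. The alternatives changed the joining and the minimum width of domains, both thresholds and the ends of the loci. A count was taken as unchanged within 1.5 times, and a median within its 95% binomial interval over genes or domains, which does not measure variation between cultures.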

Additional observations from a re-analysis of the deposited data

How the results depend on the processing

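Of 56 values (7 results under 8 alternatives), 52 were unchanged by the limits given with the processing and 4 moved, all with the threshold on the covered cell type. At 50% in place of 75%, 84 genes were covered in ESCs and not in cPGCs, 69 had the opposite coverage, and 64 ESC domains had no overlap with a cPGC domain. At 90%, the opposite set fell to 24 genes. All 38 genes were kept when domains up to 3000 bp apart were joined (43 genes), with domains of at least 3000 bp (42) and with 500 bp trimmed from each end (51). With domains of at least 5000 bp, 34 were kept among 49. The median width of the ESC domains ranged from 7800 to 10800 bp over the alternatives, and the median distance to the nearest cPGC domain from 18525 to 32927 bp (29240 bp with domains of at least 3000 bp). No paired analysis was possible because each cell type has 1 library of each kind. The unknown depth limits every statement on a missing domain. The annotation used held part of the genes, spread unevenly over the chromosomes.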

Other observations

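In the RefSeq gene order of GRCg7b, a later assembly, germ line genes stood beside some genes of the set; they were picked out after the values were seen, had no position in the annotation used, and their coverage was not measured. *TERB2*, which attaches meiotic telomeres to the nuclear envelope, follows *B2M*, on the side where the ESC domain of 16800 bp runs 7892 bp beyond that locus on galGal5. *MOV10L1*, the piRNA helicase, stands just before *PANX2*. On galGal5 the ESC domain starts 834 bp inside the lower-coordinate end of the *PANX2* locus. Whether the RefSeq order runs in the same direction was not checked. *TREM2* follows *TREM-B1*. *MRRF* is listed there under the symbol *MRRFP1*.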
